A study of Helianthemum marifolium subsp. andalusicum and Helianthemum marifolium subsp. marifolium and Helianthemum marifolium subsp. molle with 16 samples.

Results

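In leaves of the dwarf shrub Helianthemum marifolium (Cistaceae), 37 of 100462 counted clusters of assembled transcripts were found in subspecies molle alone. A cluster qualified when each of the 4 molle libraries held 5 or more counts and each of the 12 libraries of the other subspecies held 0. The members were thus chosen by their raw counts, which are described here and not tested between subspecies. The molle plants stand under the title codes molle254 (libraries 22 and 25) and molle256 (libraries 27 and 29). The others are andalusicum (codes andal260 and andal261), marifolium (codes marif085 and marif089) and origanifolium (codes origa-247 and origa-255), also with 2 libraries per code, and the organism label of the last reads Helianthemum origanifolium, without the rank of subspecies. All 16 libraries were made from poly-A RNA of adult leaves, taken 446 days after sowing from greenhouse plants raised from seed, and no treatment is named. The labels say neither what a title code stands for nor whether each library came from its own plant, so p-values cover only the spread among libraries, which may be technical.

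A transcriptome assembled without a genome holds one sequence for each transcript form that the assembler could tell apart. Alleles, splice forms and gene copies that differ enough in sequence can each become a cluster of their own, and reads are then counted to the form they match best. A cluster counted in 1 subspecies alone can thus be a gene that only this subspecies carries or one that only this subspecies transcribes in leaves. It can also be a local sequence form of a gene that all of them transcribe. Counts per cluster do not tell these apart, and the list may not be complete. In whole leaves, fewer cells of a type and less RNA per cell cannot be told apart either. The files pair no gene names with clusters, so no function can be given for any of the 37, and the leaf origin of the RNA could not be checked with marker genes. The clusters are called below by their rank in mean level and by the transcript length where the name carries one, and identifiers are printed for the first 2 in rank.

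Counts summed to between 26908113 and 34121011 in the molle libraries and to between 22170314 and 32678473 in the other libraries. A count of 0 in 1 library allows up to 0.0879 to 0.135 CPM (counts per 1000000 counts of the library), depending on its depth, and 0 counts in all 12 other libraries, which held 346365963 counts together, allow up to 0.00866 CPM. These limits cover counting error only. Levels in CPM are shares of a library's counts and grow with transcript length, so that ranks between clusters are not ranks of transcript number.

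Clusters seen in molle alone were rare among the transcripts that molle leaves expressed. Of 27703 clusters with 5 or more counts in each molle library, 0.134% had no count elsewhere. In contrast, 21447 of them (77.4%) had counts in all 12 other libraries and a further 2501 in 11. Towards molle alone the numbers were smaller, with 136 clusters counted in 3 other libraries, 88 in 2 and 57 in 1. Of the 57 clusters with counts in a single other library, that library was of andalusicum in 38, of origanifolium in 13 and of marifolium in 6.

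**Figure D1:**
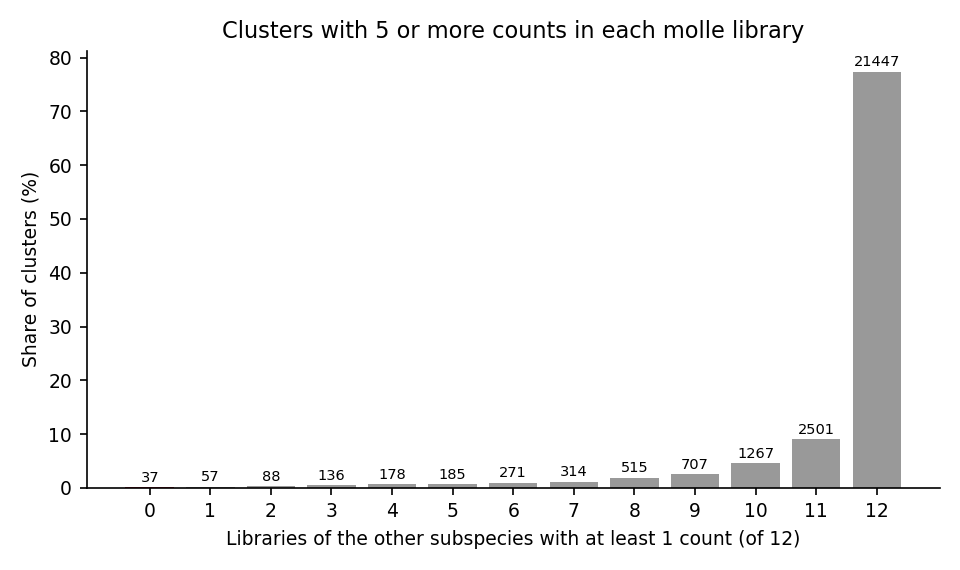
Share of the 27703 clusters with 5 or more counts in each molle library (y axis, percent) by the number of the 12 other libraries that hold at least 1 count (x axis). The number over each bar is the count of clusters: 37 at 0 libraries, 57 at 1 and 21447 at 12.

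Andalusicum was also the subspecies that most often shared such a cluster with molle. When counts were allowed in andalusicum and still required to be 0 in marifolium and origanifolium, 205 clusters qualified. Allowing counts in origanifolium gave 78 clusters, and allowing them in marifolium gave 49. These 3 numbers each include the 37 and were not tested against each other.

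The same rule gave 111 clusters for andalusicum alone, 89 for marifolium alone and 57 for origanifolium alone, so molle had the smallest set at a minimum of 5 counts. With every library thinned to 22170314 counts, the numbers were 35 for molle, 109 for andalusicum, 84 for marifolium and 53 for origanifolium. The order depended on the minimum. At 1 or more counts in each library molle had 61 clusters and origanifolium 442, while at 20 or more molle had 16 and origanifolium 4. At 100 or more counts in each library 4 molle clusters remained, against 9 of andalusicum and 0 each of marifolium and origanifolium. The molle set was thus small but held a larger part of well-counted members than that of origanifolium: 28 of 37 averaged at least 1 CPM in molle, against 15 of 57 in origanifolium, 85 of 111 in andalusicum and 85 of 89 in marifolium. These counts describe the 4 sets and were not tested.

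**Figure D2:**
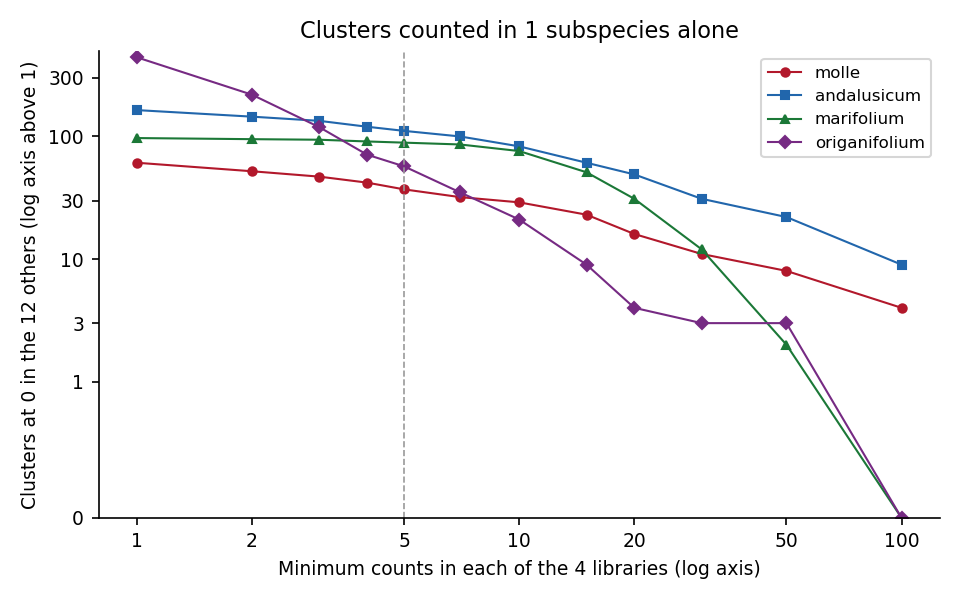
Number of clusters counted in 1 subspecies alone (y axis, log scale above 1) against the minimum number of counts required in each of its 4 libraries (x axis, log scale), with 0 counts required in the 12 others. The dashed line marks the minimum of 5 used here, where molle stands at 37, andalusicum at 111, marifolium at 89 and origanifolium at 57.

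Most clusters with counts in molle alone were not counted in all of its libraries. In total 2471 clusters had counts in molle and none elsewhere, at any level. Of these, 1545 (62.5%) had counts in 1 molle library, 655 in 2, 210 in 3 and 61 (2.47%) in all 4. The clusters of 1 library were spread over all of them, with 426 in molle 22, 314 in molle 25, 427 in molle 27 and 378 in molle 29. A cluster with a single count can only fall in 1 library, and these numbers were not split by level. The 37 are the part of the 61 with at least 5 counts in every library.

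Together the 37 clusters took a small and even share of the molle leaf transcriptome. They held 3290 counts in molle 22, 2223 in molle 25, 2988 in molle 27 and 2660 in molle 29. As a share of all counts this was 0.00964% (95% Wilson interval 0.00932 to 0.00998) in molle 22, 0.00826% (0.00793 to 0.00861) in molle 25, 0.00898% (0.00866 to 0.00930) in molle 27 and 0.00925% (0.00891 to 0.00961) in molle 29, a mean of 0.00903% ± 0.000583 (SD, n = 4). The sets of the other subspecies took 0.0372% ± 0.00543 in andalusicum, 0.0404% ± 0.0329 in marifolium and 0.00540% ± 0.000665 in origanifolium (SD, n = 4 each). In marifolium the share ran from 0.00648% to 0.0840% of a library. Single molle clusters were far less even than their sum.

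The mean level of a member over the 4 molle libraries ran from 0.186 to 9.43 CPM, with a median of 1.68 CPM. The median over all 27703 clusters with 5 or more counts in each molle library was 7.74 CPM, and 35 of the 37 lay below it. In total 5 members averaged over 5 CPM, 23 lay between 1 and 5 CPM, and 9 lay below 1 CPM. In 11 members every molle library reached 1 CPM. With 3 counts over the 12 other libraries taken as the floor, mean levels were at least 21.5-fold to at least 1088-fold higher in molle, with a median of at least 193-fold, which restates the choice of members in another unit.

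The member with the highest mean, Cluster-3823.8365, is a transcript of 409 nt. Its level was 15.6 CPM in library 22, 4.20 in library 25, 4.36 in library 27 and 13.5 in library 29 (mean 9.43 ± 6.01, SD, n = 4). One library of each code was high and the other low, so the codes overlapped. Per kilobase of transcript it also had the highest level of the 15 members with a known length, at 23.1 CPM per kb, where the median was 2.71 CPM per kb.

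Cluster-3823.8564, a transcript of 1086 nt, was the second in mean level. It stood at 3.90 and 6.54 CPM in the libraries of molle254 and at 11.9 and 13.0 CPM in those of molle256 (mean 8.84 ± 4.34, n = 4). Both libraries of molle254 lay below both of molle256. The third member showed the same order, with 2.67 and 5.83 CPM in molle254 against 9.94 and 7.69 CPM in molle256.

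The members of ranks 4 and 5 had overlapping codes. Rank 4 stood at 7.53 and 6.50 CPM in molle254 and at 3.18 and 8.31 CPM in molle256. Rank 5, of 492 nt, which has a name of both assembler forms, stood at 5.10 and 8.06 CPM in molle254 and at 7.48 and 3.58 CPM in molle256. In both, 1 library of molle256 was the lowest of the 4.

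The sixth member was uneven, with 0.674 CPM in molle 22 and 1.18 CPM in molle 29 against 7.06 CPM in molle 25 and 9.04 CPM in molle 27. Its highest library was 13.4 times its lowest. A wider range was found in the member of rank 14, which stood at 5.60 CPM in molle 22, 1.75 CPM in molle 25, 0.180 CPM in molle 27 and 1.01 CPM in molle 29. Its highest library was 31.1 times its lowest, the widest ratio of the 37. This member was picked out after its values were seen and did not pass the filter for the test between the codes.

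The 4 steadiest members with a mean of at least 1 CPM ranged from nearly level to a 2.16-fold range across molle. The steadiest with a mean of at least 1 CPM was a transcript of 487 nt, rank 20, at 1.47 and 1.86 CPM in molle254 and 1.47 and 1.84 CPM in molle256, from raw counts of 50, 50, 49 and 53. The seventh member, of 988 nt, followed at 3.63 and 2.82 CPM in molle254 and 3.48 and 4.24 CPM in molle256. The eighth stood at 2.87 and 3.90 CPM in molle254 and at 2.52 and 2.19 CPM in molle256, and the member of rank 26 at 1.44 and 0.855 CPM in molle254 and at 1.44 and 1.84 CPM in molle256. In these 4 members the highest library was between 1.27 and 2.16 times the lowest.

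**Figure D3:**
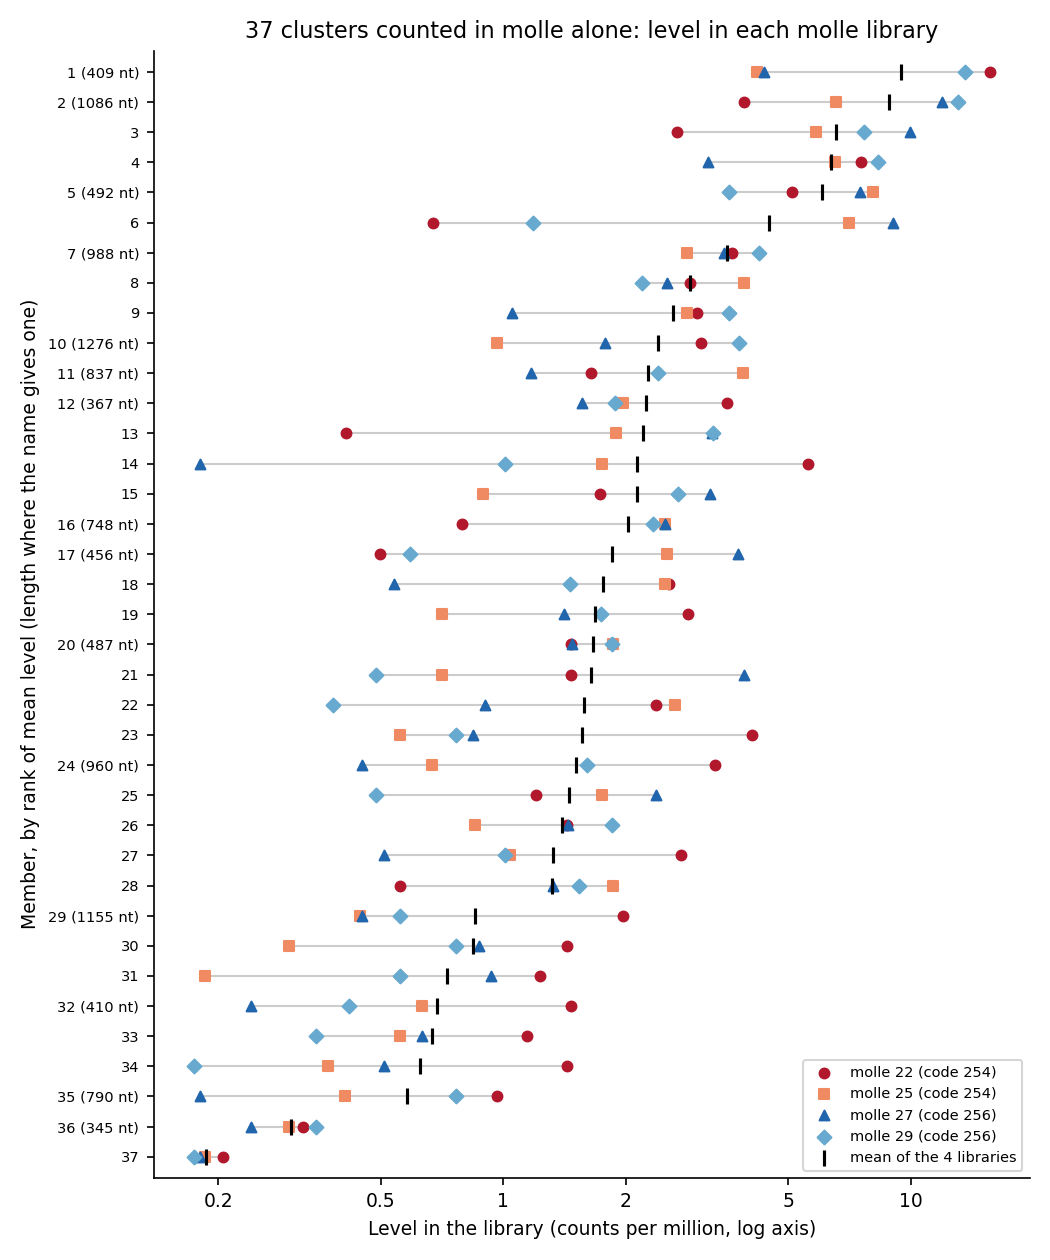
Level of each of the 37 clusters in each molle library (x axis, CPM, log scale), ordered by mean level (y axis, rank, with the transcript length in nt where the name gives one). Coloured symbols are single libraries, circles and squares for molle254 and triangles and diamonds for molle256, and black bars are means of the 4. Rank 1 spans 4.20 to 15.6 CPM, rank 14 spans 0.180 to 5.60 CPM, and rank 20 stays between 1.47 and 1.86 CPM.

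Over all 37, the highest molle library exceeded the lowest by a median of 3.92 times. The ratio was under 2 in 5 members, between 2 and 5 in 19 and over 5 in 13. Among the 27703 clusters the median ratio was 2.42, and ratios under 2 made up 36.8% and ratios over 5 made up 19.8%. The spread of all clusters was wider at low levels, so the comparison was also made by level. Between 1 and 5 CPM the coefficient of variation had a median of 53.1% in 23 members and of 52.8% in 8370 other clusters. Below 1 CPM it was 60.8% in 9 members and 54.1% in 2951 others. At 5 CPM and over it was 47.1% in 5 members and 29.8% in 16345 others, many of which have far higher levels than any member. These medians are descriptions and were not tested.

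**Figure D4:**
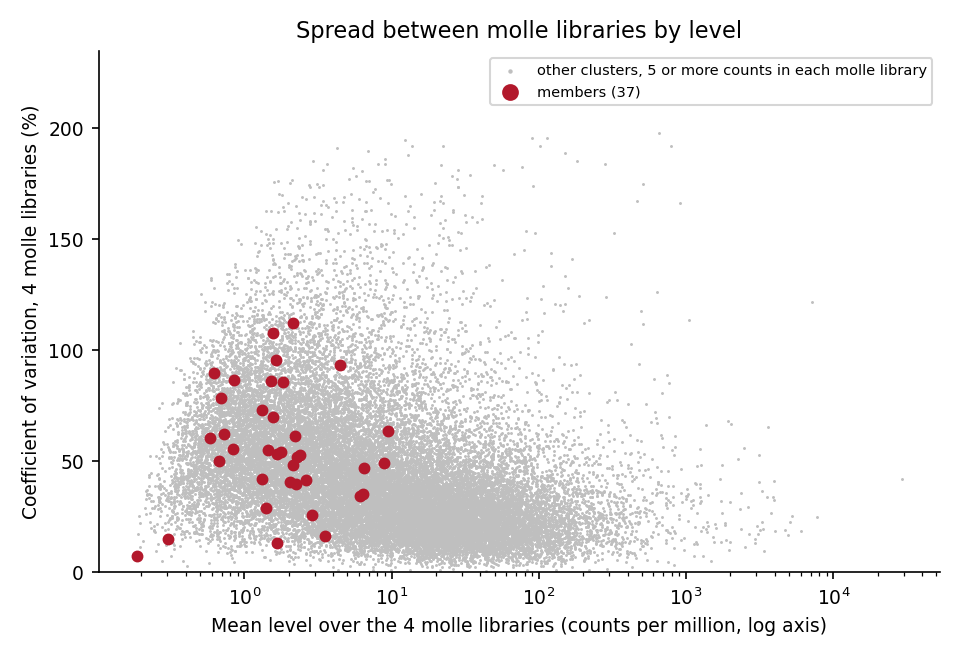
Coefficient of variation over the 4 molle libraries (y axis, percent) against their mean level (x axis, CPM, log scale). Red points are the 37 members and grey points the other clusters with 5 or more counts in each molle library. Members lie between 7.23% and 112%. The member at 7.23% stands at the edge, with the lowest mean level of all points, 0.186 CPM.

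Molle 22 was the highest library for 16 of the 37 members, molle 25 for 6, molle 27 for 7 and molle 29 for 8. In CPM, molle 22 was also the highest for 37.4% of all 27703 clusters. With trimmed-mean (TMM) library sizes it was the highest for 14 members and for 25.5% of all clusters, and with DESeq2 size factors for 13 members and for 24.7%. Of the 9 members below 1 CPM, 8 had their highest CPM in molle 22, which was noticed after the values were seen. This was not recounted with the other library sizes, and the share among other clusters below 1 CPM was not computed.

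The question of whether the members differ between the molle codes is one that the rule left free, since it treats the 4 libraries alike, although its minimum of 5 counts bounds how far a library can fall. The test ran over 46027 clusters that passed a filter on low counts, with 8 codes of 2 libraries in the model. It could be made for 29 members, and 8 did not pass the filter. Members hold counts in molle alone, so the filter could keep them only through the molle libraries. The 8 left out had a lowest molle library of 5 to 8 counts, among them rank 14 with 6 counts in molle 27. The filter thus further bounds the code differences that could be tested. None of the 29 passed the test between the codes (edgeR quasi-likelihood F-test, 0 at an adjusted p under 0.05 and 0 at an unadjusted p under 0.05, lowest adjusted p = 0.941). Over all tested clusters 0.00435% were called, which is 2 of 46027. DESeq2 called 0 members, with 16 of the 29 given an adjusted p, and 2.1% of all clusters given one, and limma voom called 0 members with 4 at an unadjusted p under 0.05. An edgeR fit on the 4 molle libraries alone also called 0 of the 29, with 2 at an unadjusted p under 0.05. The standard errors of the members ran from 1.09 to 1.94 on the log2 scale, so differences of several fold between codes cannot be told from the spread between libraries. Outside molle the members hold 0 counts by the rule, so the 12 other libraries give no measure of their spread.

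The fitted differences between the codes (molle254 over molle256) ran from -1.48 to 1.90 on the log2 scale, 16 of them above and 13 below 0. Their median size was 0.60, against 0.46 over the tested clusters with 5 or more counts in each molle library, without matching for level. The most positive of the 29 was that of rank 22, a fitted log2 difference of 1.90 ± 1.78 (SE, edgeR adjusted p = 0.964). This member stood at 2.37 and 2.64 CPM in molle254 against 0.901 and 0.383 CPM in molle256, means of 2.51 and 0.642 CPM. Rank 14, which was not fitted, had code means further apart, at 3.67 CPM in molle254 and 0.595 CPM in molle256. Among the fitted positive differences ranks 23 and 18 followed rank 22, at 1.36 ± 1.87 and 1.26 ± 1.74 SE. Rank 23 had 4.07 CPM in molle 22 against 0.557 CPM in molle 25, within molle254, and 0.841 and 0.765 CPM in molle256, so its difference rested on molle 22, and without that library the log2 fold change was -0.46. Rank 18 had 2.55 and 2.49 CPM in molle254 and 0.541 and 1.46 CPM in molle256, and its log2 difference was 0.72 without molle 27 and 2.15 without molle 29.

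In the other direction, the member of rank 13 stood at 0.410 and 1.90 CPM in molle254 and at 3.24 and 3.27 CPM in molle256, a log2 fold change of -1.48 ± 1.77 SE, the most negative of the 29. Without molle 22 it was -0.72 and without molle 25 it was -3.17. Cluster-3823.8564 had -1.29 ± 1.09 SE (edgeR adjusted p = 0.941). The member of rank 15 had -1.27 ± 1.64 SE, from 1.73 and 0.892 CPM in molle254 and 3.21 and 2.68 CPM in molle256. In each of these 3 both libraries of molle254 lay below both of molle256.

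By the order of the libraries alone, both libraries of molle254 lay above both of molle256 in 8 of the 37 members and below them in 5, and the codes overlapped in 24. Over the 27703 clusters 22.2% had molle254 above and 16.1% had it below, 38.3% in all, so 13 of 37 members is close to the share found everywhere. With TMM library sizes or DESeq2 size factors the members split into 6 above and 6 below. Between libraries of the same code, the median size of the log2 difference over the members was 1.21 for molle 22 and 25 and 0.80 for molle 27 and 29. Between libraries of different codes it was 1.40 for molle 22 and 27, 0.91 for molle 22 and 29, 0.75 for molle 25 and 27 and 0.79 for molle 25 and 29. The 3 pairs that hold molle 22 were the widest. Over the 27703 clusters the same medians lay between 0.57 and 0.66, and no test of these differences was made. Those clusters had a median level of 7.74 CPM against 1.68 CPM in the members, and no comparison by level was made here.

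**Figure D5:**
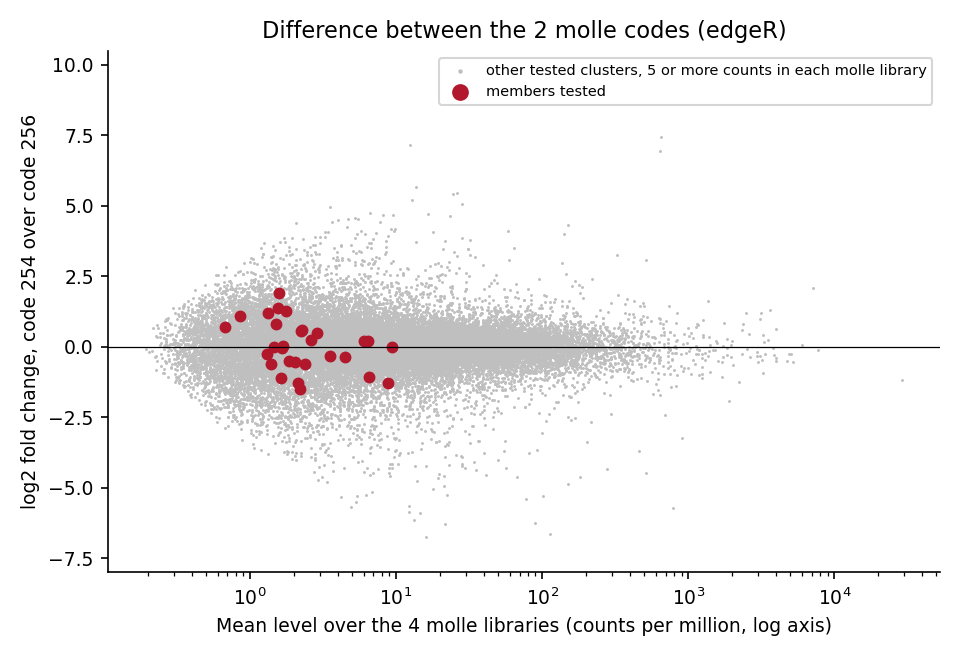
Fitted log2 fold change of molle254 over molle256 (y axis) against the mean level over the 4 molle libraries (x axis, CPM, log scale) for tested clusters with 5 or more counts in each molle library. The 29 tested members, in red, lie between -1.48 and 1.90, inside the spread of the other clusters, in grey.

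The 37 clusters hold 41 transcripts, 25 named as Trinity names its output and 16 as Oases does. In 33 clusters there is 1 transcript, and in 4 there are 2. The share of clusters with 1 transcript was 89.2% in the members and 96.3% over the 27703 clusters. Clusters with Trinity-form names alone made up 22 of the 37, or 59.5%, against 63.5% over the 27703, so no style of name was concentrated among the members. A further 13 members had Oases-form names alone and 2 had names of both forms. Of the Oases-form names 11 carry the number 25 and 5 the number 31, and 1 member, of 1276 nt, has a transcript of the same length under each number.

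Only the Oases-form names give a length, so it is known for 15 members. It ran from 345 to 1276 nt with a median of 748 nt, where the median over the 10111 clusters with a length among the 27703 was 1495 nt. All 15 are thus below that median. Lengths were not compared by level, and 35 of the 37 members lie below the median level of the 27703 clusters. In total 7 of the 15 were under 500 nt and 3 over 1000 nt. The longest, rank 10 with 1276 nt, stood at 3.05 and 0.966 CPM in molle254 and at 1.77 and 3.79 CPM in molle256. The next, rank 29 with 1155 nt, stood at 1.96 and 0.446 CPM in molle254 and at 0.451 and 0.557 CPM in molle256, and the third longest was Cluster-3823.8564. A short length in an assembly can belong to a short transcript or to a fragment of a longer one, and which of these holds was not tested.

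The names also say how many forms the assembler saw of a gene. Of the 16 Oases-form transcripts 4 come from a locus with 1 transcript and 12 from loci with 2 to 13. Cluster-3823.8365 is number 11 of the 13 transcripts of its locus. These names imply 42 further transcripts in all, of which the deposited list holds 1. Of the 25 Trinity-form transcripts, 15 carry form number 1 of their gene and 10 a higher one, up to 9.

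Clusters that share an assembler gene name with a member were few, since the 41 transcripts fall under 40 gene names and only 2 other counted clusters carry one of them. The first, a form of the same locus as the seventh member, had 9 counts in molle 22 and 14 in molle 27, and 0 in the 14 other libraries. The second, a form of the same gene as the member of rank 33, had 10 counts in origanifolium 33 and 0 in the 15 other libraries. Neither passed the filter on low counts, so neither was tested.

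A wider kinship was added after the data were seen, by the read-cluster number with which Trinity-form names begin and which can join several genes. Of the 24 such numbers among the members, 9 also name other counted clusters, 13 in all. Every one of the 13 had counts outside molle, and 2 had none in molle. Thus for 9 members a cluster with the same read-cluster number was counted in another subspecies, in some at very few counts. The only relative of rank 19 had 1 count outside molle, that of rank 33 had 10 and that of rank 23 had 13. Counts outside molle are common, since 2.46% of all counted clusters had counts in molle alone.

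The eighth member has the widest set of these relatives. A pair of them was counted in every library, one at 16.7 CPM in molle, 9.61 CPM in andalusicum, 7.94 CPM in marifolium and 9.82 CPM in origanifolium, and the other at 6.27 CPM in molle, 6.77 CPM in andalusicum, 6.00 CPM in marifolium and 8.01 CPM in origanifolium (means, n = 4 each). Neither passed the test between molle and the mean of the other subspecies, with log2 differences of 0.94 ± 0.27 (SE, edgeR adjusted p = 0.0857) for the first and -0.06 ± 0.28 (SE, edgeR adjusted p = 0.976) for the second. In molle the first stood at 21.8 CPM in library 22, 6.88 in library 25, 19.9 in library 27 and 18.1 in library 29, so that library 25 stood apart. It passed the threshold in 2 of 11 alternatives, with DESeq2 (adjusted p = 0.0238) and without molle 25 (log2 difference 1.19, edgeR adjusted p = 0.0410). The relative of the member of rank 18 was also counted everywhere, at 11.3 CPM in molle, 11.4 CPM in andalusicum, 14.7 CPM in marifolium and 10.4 CPM in origanifolium, and did not pass the test (log2 fold change -0.03 ± 0.37 SE, edgeR adjusted p = 1).

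Of the 13 relatives 8 passed the filter on low counts. These relatives were reached through clusters chosen for being counted in molle alone, and some passed the filter only through molle, so their differences are given as a description. Over all 46027 clusters 1.96% were higher in molle than in the mean of the other subspecies (edgeR, adjusted p under 0.05), and 2 of the 8 were, from which nothing is read. One, a relative of the third member, had 53, 0, 69 and 150 counts in molle 22, 25, 27 and 29, against 19, 10, 48 and 0 counts in andalusicum 1, 3, 6 and 8 and 0 in marifolium and origanifolium (edgeR adjusted p = 0.0414). The other, a relative of the member of rank 34, had 55, 88, 57 and 51 counts in the molle libraries, against 15 counts in andalusicum 8 and 0 in the 11 other libraries (edgeR adjusted p = 0.0245). Both were lost in 6 of 11 alternatives, with adjusted p up to 0.172 and 0.259 after summing libraries by code. A further relative of the member of rank 34 had 74, 40, 38 and 6 counts in the molle libraries, against 22 counts in andalusicum 8 and 0 in the 11 other libraries. It missed the threshold with edgeR (adjusted p = 0.0510) and passed it in 1 of 10 alternatives, with limma voom (adjusted p = 0.000637). With DESeq2 the adjusted p was 0.114, and it rose to 0.314 with edgeR after summing libraries by code. Outside molle, these 3 relatives were counted in andalusicum alone.

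Other relatives were lower in molle without passing the test. The third relative of the eighth member averaged 0.0451 CPM in molle, where only molle 27 held counts, against 0.747 CPM in andalusicum, 0.270 CPM in marifolium and 0.502 CPM in origanifolium (log2 difference -3.11 ± 1.78 SE, edgeR adjusted p = 0.411). A relative of the member of rank 25 averaged 0.265 CPM in molle, against 1.30 CPM in andalusicum, 2.02 CPM in marifolium and 0.866 CPM in origanifolium (log2 difference -2.23 ± 1.20 SE, edgeR adjusted p = 0.371).

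The cluster numbers of the members were not spread over the table. All but 1 belong to the group numbered 3823, which holds 95.1% of all clusters. Within it, 13 members lie between the numbers 7720 and 8830 and 23 between 83868 and 85685. These stretches hold 1111 and 1818 clusters. Of these, 302 (27.2%) and 382 (21.0%) had counts in molle alone at any level, against 2.46% of all clusters. The limits of each stretch are the lowest and highest numbers of its members. The 13 and 23 members, chosen for having counts in molle alone, are among the 302 and 382. The contrast with all clusters thus depends on the choice of members and was not tested. The cluster numbers were given by the authors' clustering, and the labels state neither its tool nor whether it used the same reads.

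Near its limits the rule separated clusters that differ little. The member with the fewest counts had 7, 5, 6 and 5 counts in molle 22, 25, 27 and 29, the next had 11, 8, 8 and 10, and the third 33, 11, 6 and 22. Just outside, 5 clusters with 0 counts elsewhere had a lowest molle library of 4, the most abundant of them with 49, 105, 25 and 4 counts, followed by one with 7, 4, 61 and 52 and one with 31, 4, 26 and 21. A further 6 clusters had 5 or more counts in each molle library and 1 count elsewhere, 5 of them in andalusicum and 1 in origanifolium. The most abundant of these had 564, 426, 1358 and 274 counts in the molle libraries, more than any member, and 1 count in andalusicum 1. The next had 50, 63, 26 and 12 counts in molle and 1 in origanifolium 38, and the third had 23, 27, 53 and 21 in molle and 1 in andalusicum 3.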

How the data were processed

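Poly-A RNA of adult leaves was sequenced in 16 libraries, per the labels' protocols. The authors deposited raw counts per cluster of assembled transcripts and a list pairing transcripts with clusters; FastQC is named in the submitters' processing notes, and for the assembler, clustering tool, aligner and counter nothing is stated there. Columns were matched to libraries by title, with 0 unmatched. The list holds 18116 transcripts under 7 names that have no counts, which were not used. The members and lists were chosen with earlier results of these data known, and no gene lists could be applied because the files pair no gene names with clusters. Members named singly are the 8 with the highest mean CPM, the 4 steadiest with at least 1 CPM, the 3 most positive and 3 most negative code differences among those tested, the 3 longest, and those at the limits of the rule. Outside this list, rank 14 was named after its values were seen and rank 16 for a library that stands apart. Ranks 19, 25, 33 and 34 were named through their relatives.

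CPM were computed from the deposited counts and column totals. Fits used R 4.3.3 with edgeR 4.0.16 (TMM; low counts filtered by filterByExpr with subspecies as group; quasi-likelihood F-test; adjustment by Benjamini-Hochberg over all 46027 tested clusters), on all 16 libraries, for the 8 codes and for molle minus the mean of the other 3 subspecies. The edgeR standard errors were taken as the size of the log2 fold change over the square root of F. Alternatives used DESeq2 1.42.0, limma 3.58.1, other filters and left-out libraries. Relatives by read-cluster number and the count without marifolium 12 and 18 were added after the data were examined. Thinning used numpy 2.4.6 with seed 1. No pair of molle libraries agreed within sampling noise (chi-square per degree of freedom from 80.3 to 105). In simulated counts with known differences, the fit between codes called only some of them. The simulated means were taken over all 16 libraries, while the members hold 0 counts in 12 of them. What could be missed in the members was thus not measured, and 0 calls set at most a weak limit. Reads carry no stated molecular identifiers, so intervals cover counting error only. Whether counting used strand is not stated, so sense and antisense reads may be mixed, and reads shared between alleles or gene copies may have been split.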

Additional observations from a re-analysis of the deposited data

Results flagged for a closer look

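In 3 of the 37 members 1 molle library stood apart from the other 3, with a gap to its nearest neighbour that exceeded Dixon's 95% critical value as a share of the range. Chance flags about 5% of such groups where values are normal, and among all 27703 clusters with 5 or more counts in each molle library 8.61% were flagged, against 8.11% of the members. The library was molle 22 in all 3. The member of rank 29, of 1155 nt, was high there (1.96 CPM against 0.446 to 0.557 CPM, gap 0.927 of the range). The member of rank 23 was also high there (4.07 CPM against 0.557 to 0.841 CPM, gap 0.919). The member of rank 16, of 748 nt, was low there (0.791 CPM against 2.33 to 2.49 CPM, gap 0.905).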

How the results depend on the processing

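The number of members was 61 with a minimum of 1 count in each molle library and 16 with a minimum of 20. It was between 60 and 66 without 1 of the molle libraries and between 37 and 51 without 1 of the others. It was 29 with a minimum of 10 counts, 43 and 55 with up to 1 and 3 counts allowed elsewhere, 35 after thinning (34 of them members), 39 over assembler gene names and 38 with marifolium 12 and 18 both left out. The members' mean share of counts was 0.0103%, 0.00843% and 0.00649% at minimums of 1, 10 and 20 counts, and between 0.0117% and 0.0136% without 1 molle library. No member was called between the codes under any of 10 alternatives (adjusted p of at least 0.372). Of the 6 code differences named, only that of rank 23 turned, to -0.46 without molle 22, and it was 2.14 without molle 25. No cluster with a member's gene name was called when low counts were kept, and the other alternatives of this test could not be fitted to these clusters. With relatives by read-cluster number 2 were called. Among those, 2 clusters with differences near 0 turned in sign, the relative of rank 18 to 0.048 with limma voom, 0.016 with codes summed and 0.21 without marifolium 12 and 18 (-0.26 to 0.11 without 1 molle library), and the second relative of rank 8 to 0.0080 without marifolium 12 and 18 (-0.14 to 0.076 without 1 molle library). No paired analysis was possible because the library numbers are not shared between subspecies or codes. Depth limits the faint members, since 9 lie below 1 CPM, and code differences of several fold could be missed with 2 libraries a code.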
